A study of Helianthus annuus with 6 samples.

Results

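The loci described here were 152 transcribed loci that carried no RefSeq identifier. They were detected in petioles of the sunflower (Helianthus annuus) line 20G and listed without any signal in line 19G. Members carried an identifier of the authors' own new loci, had 5 FPKM or more in each of the 3 libraries of 20G, and stood at exactly 0 in all 3 libraries of 19G. FPKM divides the fragments of a locus by its transcript length and by the library's mapped fragments, so levels can be compared between loci. The 100 loci with the highest mean FPKM of the series were to be left out of the set, and 0 of them met the other conditions. The 152 loci came out of 13716 new loci and 70842 loci in all. The identifiers have the form Helianthus_annuus_newGene_6551 and are given below from newGene onward.

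Both lines are inbred. The libraries of 20G, the leaf-compact line with a small petiole inclination angle, and of 19G, the leaf-flat line with a large angle, were made from petioles, and the labels give no treatment, stage or age that sets the groups apart. Line and leaf form coincide, so a difference between lines and a difference tied to petiole angle cannot be told apart. The labels call the library source single-cell, but each file held 1 value per locus and library, as bulk RNA does. In bulk tissue, fewer cells of a type and less RNA per cell cannot be told apart. Whether separate plants gave the 3 libraries of a line is not stated, so their spread may be technical. No product names pair with the identifiers in the files or the gene table, so markers of petiole tissues could not be checked.

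A new locus in a transcriptome study is a place where assembled reads form a transcript outside the gene models of the annotation. Such transcripts can be long non-coding RNAs, genes that the annotation missed, transcribed transposable elements or unannotated ends of known genes. Plant inbred lines of one species are known to differ in gene content as well as in the activity of shared genes, and a reference genome from one line lacks sequences carried by others. Expression values alone do not tell these kinds apart, and no sequence or position of the loci was used here. All 57126 RefSeq identifiers in the files matched protein-coding entries of the RefSeq gene table. That table also lists 17800 long non-coding RNA genes, of which 0 were in the files under a RefSeq identifier. "New" therefore means outside the protein-coding set of the files, and whether a member is one of those non-coding genes was not tested. Of the 13716 new loci, 2061 (15.0%) were listed at 0 in all 6 libraries.

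Summed FPKM was 660268 to 701884 per library in 20G and 638235 to 685174 in 19G. New loci at 0 made up 43.4% to 44.2% of all new loci in the libraries of 20G and 38.9% to 40.8% in those of 19G. The 20G libraries had pairwise Pearson correlations of 0.95 to 0.97 over the tested loci, which are no independent points. Within 19G, replicates 2 and 3 correlated at 0.97, and replicate 1 stood apart from them at 0.91 and 0.89. The rule depends on the 0 in 19G replicate 1 as in the others, and its count without that library is given below.

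The mean FPKM of the members in 20G ran from 5.47 to 101.9, with a median of 10.8 and quartiles of 7.98 and 15.3. Between 5 and 10 FPKM lay 68 of the 152, between 10 and 20 lay 63, between 20 and 50 lay 15, and 6 reached 50 or more. By library, the median member stood at 9.69 FPKM in 20G replicate 1, at 12.7 in replicate 2 and at 9.79 in replicate 3. Those medians exceeded 56.2%, 64.6% and 56.7% of the loci with at least 1 FPKM in the same library. The rule itself asked for 5 FPKM, so this position follows in part from the choice of members. Together the 152 took 0.305% of summed FPKM in 20G replicate 1, 0.370% in replicate 2 and 0.305% in replicate 3.

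The most abundant member was newGene_6551, with 82.7, 144.9 and 78.2 FPKM in the 20G libraries, in the order of their replicate numbers, against 0 in each 19G library. Its mean in 20G was 101.9 ± 37.3 FPKM (SD, n = 3). Next came newGene_14671, with 55.9, 130.1 and 69.2 FPKM in 20G and 0 in each 19G library. In both loci replicate 2 was the highest library of 20G, and the lowest of the 3 values was still over 10 times the limit of 5 FPKM that the rule set. A level above 50 FPKM in every 20G library was also held by newGene_25403 (64.9, 93.2 and 53.8 FPKM) and newGene_8297 (52.4, 82.4 and 60.3 FPKM). Both were at 0 throughout 19G. These 4 loci were the only members at 50 FPKM or more in each library of 20G.

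The order of the 20G libraries was not the same in all abundant members. In newGene_27620 the values were 74.0, 37.4 and 68.9 FPKM, with replicate 2 the lowest, and in newGene_2160 they were 38.5, 72.6 and 45.1 FPKM, with replicate 2 the highest. Replicate 3 was set apart in 2 members: newGene_1300 stood at 27.3, 24.8 and 63.1 FPKM, and newGene_6030 at 26.4, 15.5 and 57.8 FPKM. The mean of newGene_6030, 33.2 FPKM, had an SD of 21.9, so its level in the line was poorly fixed. In newGene_12736 replicate 1 was the highest library, at 44.2 FPKM, against 15.2 and 29.3 FPKM in replicates 2 and 3. The remaining 3 of the 12 most abundant members were newGene_6453 at 28.7 ± 11.2 FPKM, newGene_20198 at 27.7 ± 10.4 FPKM and newGene_19696 at 27.1 ± 6.28 FPKM (SD, n = 3). Of the 12, 7 were highest in 20G replicate 2, 3 in replicate 3 and 2 in replicate 1.

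**Figure D1:**
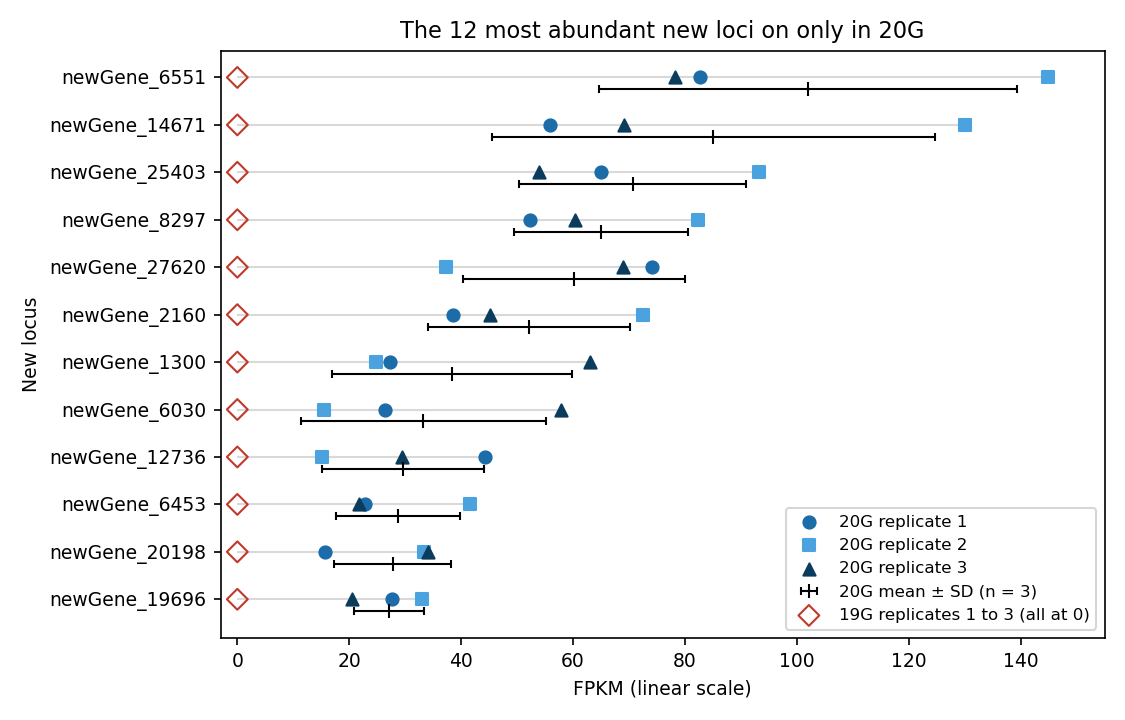
FPKM (linear axis) of the 12 members with the highest mean in 20G, 1 row per locus; filled symbols are the 3 libraries of 20G, black bars their mean ± SD, and open red diamonds the 3 libraries of 19G, which all lie at 0. The highest point is newGene_6551 at 144.9 FPKM in 20G replicate 2, and the 3 libraries of 20G spread widely in newGene_6030, from 15.5 to 57.8 FPKM.

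The spread between the 3 libraries of 20G was wide in some members and narrow in others. The ratio of the highest to the lowest 20G value had a median of 1.55 over the 152 loci and ran from 1.02 to 3.72. It was under 1.5 in 72 members, 1.5 to 2 in 59 and 2 or more in 21, of which 2 exceeded 3. The closest agreement was in newGene_7791, with 6.58, 6.46 and 6.43 FPKM, and newGene_8405, with 5.37, 5.51 and 5.53 FPKM. Of these, newGene_8405 was also the member with the lowest mean. Also tight were newGene_4622, at 13.8, 14.3 and 13.8 FPKM, and newGene_21441, at 13.5, 13.4 and 12.7 FPKM. At the other end, newGene_23957 stood at 12.1, 23.6 and 7.84 FPKM and newGene_5001 at 8.69, 17.4 and 6.56 FPKM, with replicate 2 the highest in both. The 4 widest ratios were those of newGene_6030 at 3.72, newGene_23957 at 3.01, newGene_12736 at 2.91 and newGene_5001 at 2.66.

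Replicate 2 of 20G held the highest value in 105 of the 152 members (69.1%), replicate 1 in 27 and replicate 3 in 20. The median member lay 0.34 higher on the log2 FPKM scale in replicate 2 than the mean of replicates 1 and 3, while replicates 3 and 1 differed by a median of -0.05 (replicate 3 minus replicate 1). The same lean was present in new loci that both lines expressed. Among 1226 new loci with at least 5 FPKM in every 20G library and at least 1 FPKM in every 19G library, replicate 2 was highest in 71.6% and its median excess was 0.32. RefSeq genes chosen by the members' own rule, 80 in number, had replicate 2 highest in 75.0%, with a median excess of 0.33. Among 13156 RefSeq genes expressed in both lines at those levels it was highest in 36.5%, with a median of -0.03. The members' share thus lay nearer to that of the other new loci and of the RefSeq genes on only in 20G than to that of the RefSeq genes expressed in both lines. These shares were not tested against each other.

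**Figure D2:**
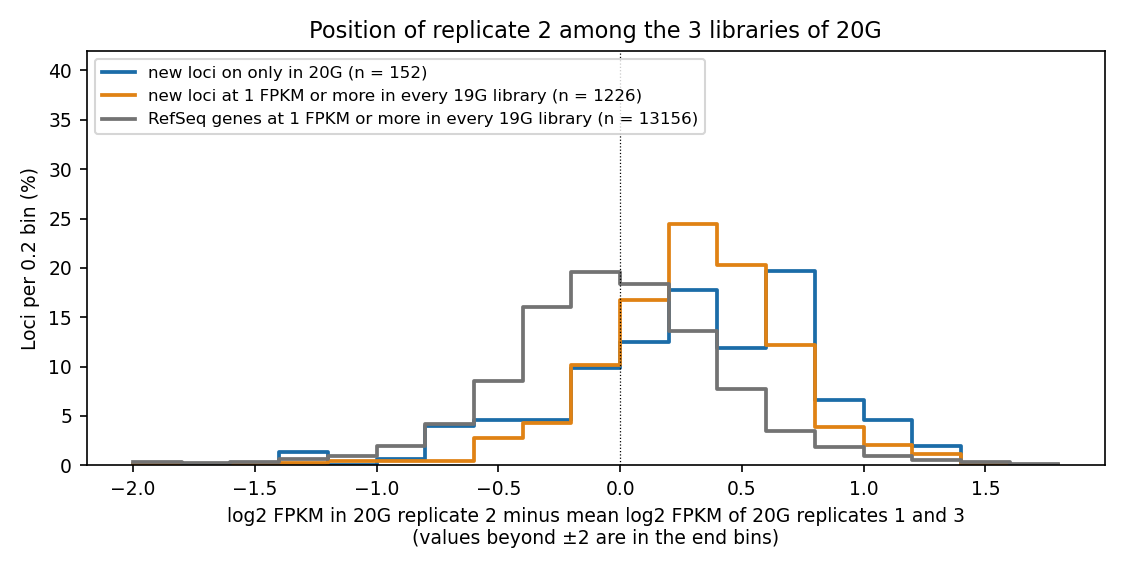
Distribution of the log2 FPKM in 20G replicate 2 minus the mean log2 FPKM of 20G replicates 1 and 3, as the percentage of loci per bin, for the 152 members (blue), 1226 new loci expressed in both lines (orange) and 13156 RefSeq genes expressed in both lines (grey). Both sets of new loci are shifted to the right, with medians of 0.34 and 0.32, while the RefSeq genes centre at -0.03.

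The agreement between the 20G libraries was examined across members. On the log2 scale and across the 152 loci, which share their libraries, Pearson's r stood at 0.81 between replicates 1 and 2, 0.90 between 1 and 3, and 0.79 between 2 and 3. Over the 1226 new loci expressed in both lines these were 0.92, 0.95 and 0.93. The range of levels, which differs between the sets, enters these correlations. The median SD of log2 FPKM over the 3 libraries was 0.33 in members and 0.26 in the new loci of both lines. It was 0.29 in the 80 RefSeq genes on only in 20G and 0.22 in the RefSeq genes expressed in both lines. The sets were not matched for level, and the part that level has in these SDs was not tested.

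The members were set beside other new loci by following the 19G level of all new loci that 20G expressed. Outside the 100 most abundant loci, 1527 new loci reached 5 FPKM in every 20G library, and the 152 members were 9.95% of them. In 827 (54.2%) the highest 19G library exceeded 10 FPKM, and in 346 it lay between 5 and 10. Between 1 and 5 FPKM there were 99 loci, and between 0.5 and 1 there were 24. Another 40 lay above 0.1 and up to 0.5 FPKM, and 39 had trace values above 0 and up to 0.1 FPKM. The class at exact 0 thus held more loci than any of the 4 classes between it and 5 FPKM. These classes differ in width, and a 0 also gathers levels too low to be read. The counts therefore do not measure how sharply members are separated. The number of 19G libraries at 0 was also uneven, at 3 libraries in the 152 members, 2 in 46 loci, 1 in 18 and none in 1311.

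**Figure D3:**
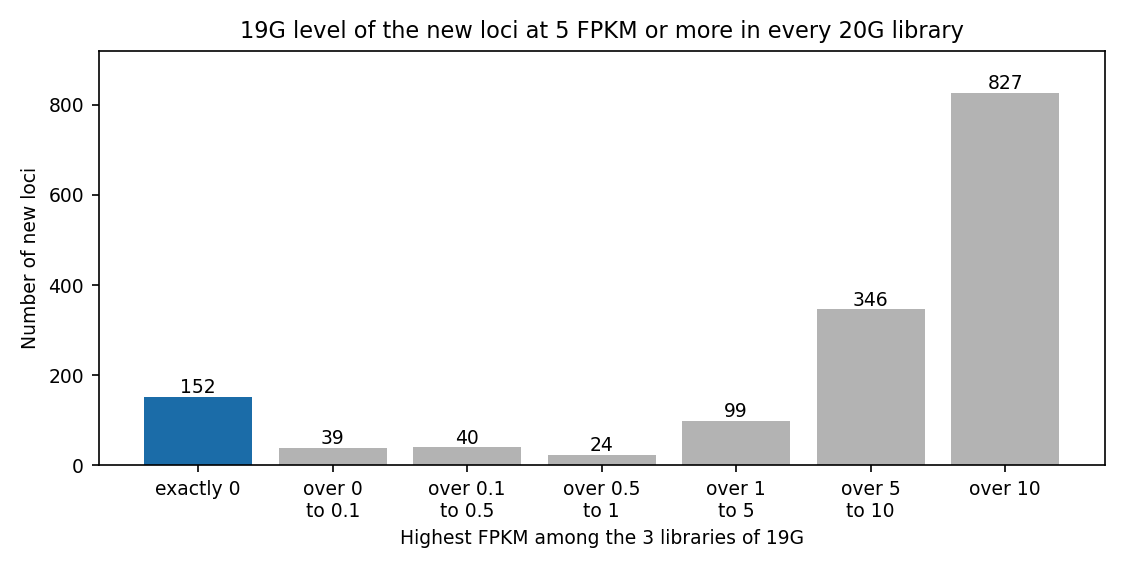
Number of new loci (vertical axis) by their highest FPKM among the 3 libraries of 19G (horizontal axis, classes of unequal width), for the 1527 new loci with at least 5 FPKM in every 20G library. The blue bar is the 152 members at exactly 0; the low classes up to 1 FPKM hold 39, 40 and 24 loci, and 827 loci exceed 10 FPKM.

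At the edges of the rule, the loci differed little across the limits. Just inside the level limit were newGene_19770, with 5.48, 7.31 and 5.00 FPKM in 20G, newGene_10726, with 5.06, 9.64 and 6.61 FPKM, and newGene_13793, with 7.88, 10.5 and 5.15 FPKM. Just outside it were newGene_29092, with 5.13, 8.56 and 4.95 FPKM, newGene_27209, with 4.92, 5.62 and 5.02 FPKM, and newGene_18568, with 9.93, 4.92 and 10.8 FPKM. All 6 were at 0 in every 19G library. On the side of the 0, the nearest excluded loci had 1 library with a trace value, that of 19G replicate 2. It was 0.0058 FPKM in newGene_29055, 0.0060 in newGene_13768 and 0.0073 in newGene_16309, while their 20G values were 5.59 to 7.01, 21.2 to 61.7 and 9.68 to 11.2 FPKM. At unknown depth, a 0 cannot be told apart from a trace of that size. With up to 0.1 FPKM allowed in every 19G library, 191 loci met the rule.

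The choice of members used all 6 libraries, so each library was also left out in turn and read afterwards for the loci that the other 5 chose. All 152 members were among the loci chosen each time. The shares therefore only reflect how many other loci the library left out had removed, and are no independent check of the members. Leaving out 19G replicate 1 gave 168 loci, of which 152 (90.5%) were at 0 in the library left out. Without 19G replicate 2 there were 162 loci, with 93.8% at 0 in it, and without 19G replicate 3 there were 172, with 88.4% at 0. In replicates 2 and 3 the exceptions were small, with highest values of 0.109 and 0.309 FPKM. In 19G replicate 1, the library least like the others of its line, 6 of the exceptions reached at least 1 FPKM and 3 reached at least 5. The largest was newGene_29561, singled out after its values were seen, with 104.0, 168.2 and 93.0 FPKM in 20G and with 39.0, 0 and 0 FPKM in 19G. Likewise newGene_5242 stood at 36.2, 26.8 and 26.7 FPKM in 20G and at 7.68, 0 and 0 FPKM in 19G. The third, newGene_30028, had 15.8, 18.8 and 13.8 FPKM in 20G and 5.77, 0 and 0 FPKM in 19G. Why these loci had signal in 1 library of 19G was not tested.

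The 20G libraries left out gave a like picture. Of 163 loci chosen without 20G replicate 1, 152 (93.3%) reached 5 FPKM in it and the lowest stood at 3.41 FPKM. Of 158 chosen without replicate 2, 96.2% reached 5 FPKM in it, with a lowest value of 3.16 FPKM. Without replicate 3 there were 159 loci, 95.6% of them at 5 FPKM or more in it and the lowest at 2.20 FPKM. No locus chosen from the other 5 libraries was at 0 in the 20G library left out.

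On the log2(FPKM + 1) scale, the difference of 20G minus 19G ran from 2.69 to 6.63 over the members, with a median of 3.55. Standard errors were 0.14 to 0.43. By the rule the 19G values of a member do not vary, which lowers the pooled spread behind these errors. All 152 passed the filter of at least 1 FPKM in 3 libraries by their definition, and all 152 were called as higher in 20G by limma, at a Benjamini-Hochberg adjusted p under 0.05 with a log2 difference no smaller than 1. Over all 28292 loci tested, 2388 (8.44%) were called higher in 20G, and over the 5130 new loci tested, 964 (18.8%) were. Since the rule used the same contrast, the count of members called carries no information beyond the rule. With a 0 in one line the size of the log2 difference is set by the pseudocount, and with 0.1 in place of 1 it ran from 5.80 to 9.94 over the 26 named members. No fold is given against a line listed at 0.

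Loci without signal in the other line were a larger share of the new loci than of the RefSeq genes, in either direction. The 152 members were 9.95% of the 1527 new loci that 20G expressed at 5 FPKM or more in every library, while 80 of 13502 RefSeq genes (0.593%) met the same rule. With the lines exchanged, 159 of 1482 new loci (10.7%) were on only in 19G, as were 90 of 12596 RefSeq genes (0.715%). The number of members was thus close to that of the new loci on only in 19G. These sets were chosen on the values themselves and were not tested. The authors' own assembly defined the new loci, and the libraries that supplied it are not named in the sources used here.

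The share at 0 depended on the level in 20G. Among new loci with a mean of 5 to 10 FPKM in 20G, 68 of 561 (12.1%) were members, and at 10 to 20 FPKM 63 of 556 (11.3%) were. At 20 to 50 FPKM the share was 15 of 297 (5.05%), and at 50 FPKM or more it was 6 of 113 (5.31%). The RefSeq genes on only in 20G became rarer over the same classes, at 1.10%, 0.663%, 0.365% and 0.0876%. In the new loci on only in 19G the shares were 12.3%, 11.4%, 9.80% and 1.98%. The highest class held 6 members of 20G and 2 new loci of 19G, counts too small to rank the lines.

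**Figure D4:**
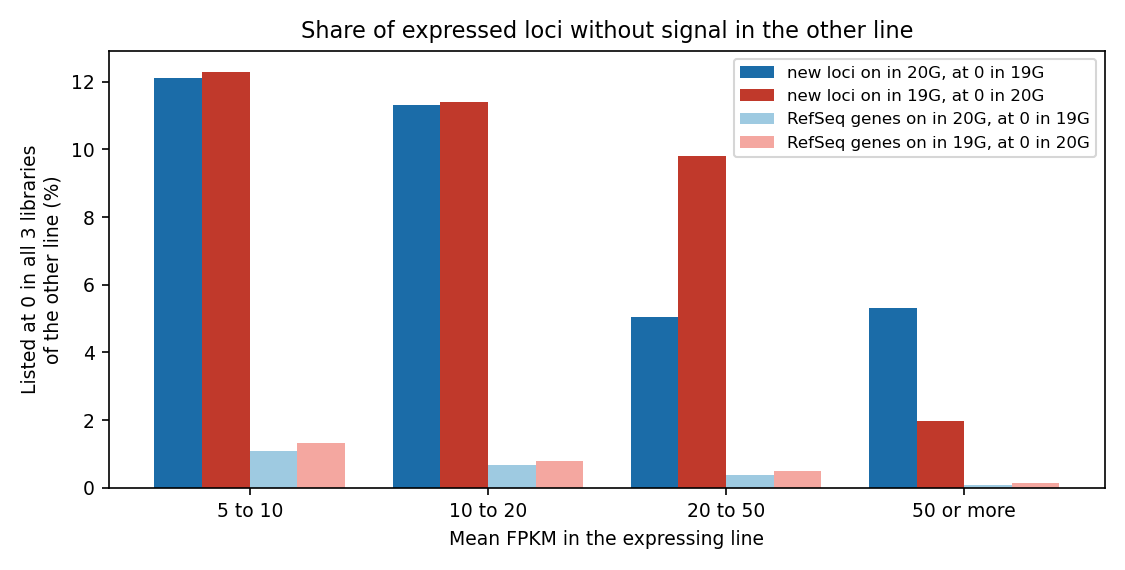
Percentage of loci listed at 0 in all 3 libraries of the other line (vertical axis) by mean FPKM in the expressing line (horizontal axis), among loci with at least 5 FPKM in every library of that line. New loci on in 20G (dark blue, the members) run from 12.1% to 5.31% and RefSeq genes on in 20G (light blue) from 1.10% to 0.0876%; red and pink bars are the same with the lines exchanged.

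The loci at 0 in 19G were also counted at other levels asked of 20G. At 1 FPKM or more in every 20G library there were 464 such new loci, at 2 or more 319, at 5 or more the 152 members, at 10 or more 55, at 20 or more 14 and at 50 or more 4. RefSeq genes numbered 205, 136, 80, 31, 11 and 1 at the same levels. Each set lies within the one at the level below, so these counts can only fall. They give no share of the loci that 20G expressed at each level.

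A property that the rule did not use was the number in the identifier. The new loci carry numbers from 4 to 30620, of which 13716 are listed. Whether the numbers follow the order of the loci along the chromosomes is not stated by the labels or files, so closeness is stated in numbers only. The state of the new loci with a number near that of a member was read from all 6 libraries. A neighbour counted as on only in 20G with at least 1 FPKM in every 20G library and 0 in every 19G library. Neighbours were counted per pair of loci, so a locus near several members entered several times. At 1 number apart, 15 of 134 listed neighbours (11.2%) were on only in 20G, against 3.50% of the neighbours of all new loci. At 2 to 5 numbers apart the shares were 10.1% (58 of 577) near members and 3.41% near all new loci. They were 6.23% and 3.31% at 6 to 10 numbers apart, and 4.73% and 3.40% at 11 to 20. At 21 to 50 and at 51 to 100 numbers apart the members' shares were 3.78% and 3.92%, against 3.33% and 3.35% near all new loci.

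The opposite state was counted in the same way. New loci on only in 19G made up 4.48% of the neighbours 1 number from a member and 3.99% of those 2 to 5 numbers away, against 4.30% and 4.20% near all new loci. At 6 to 10 numbers apart the shares were 2.96% near members (19 of 642) and 4.23% near all new loci. Near the new loci that both lines expressed, 1233 with the 100 most abundant loci kept in, 2.95% of the neighbours 1 to 5 numbers away were on only in 20G, against 10.3% near members. Since members can be each other's neighbours, the share was also taken with members left out of the neighbours, an alternative chosen after seeing the data. It was then 7.40% near members, 51 of 689, against 2.31% near all new loci. Without 19G replicate 1, the share near the 168 loci then chosen was 10.1%, against 3.76% near all new loci. Neighbouring numbers are not independent and 1 transcript may have been divided into several loci, so these shares are descriptions and were not tested.

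**Figure D5:**
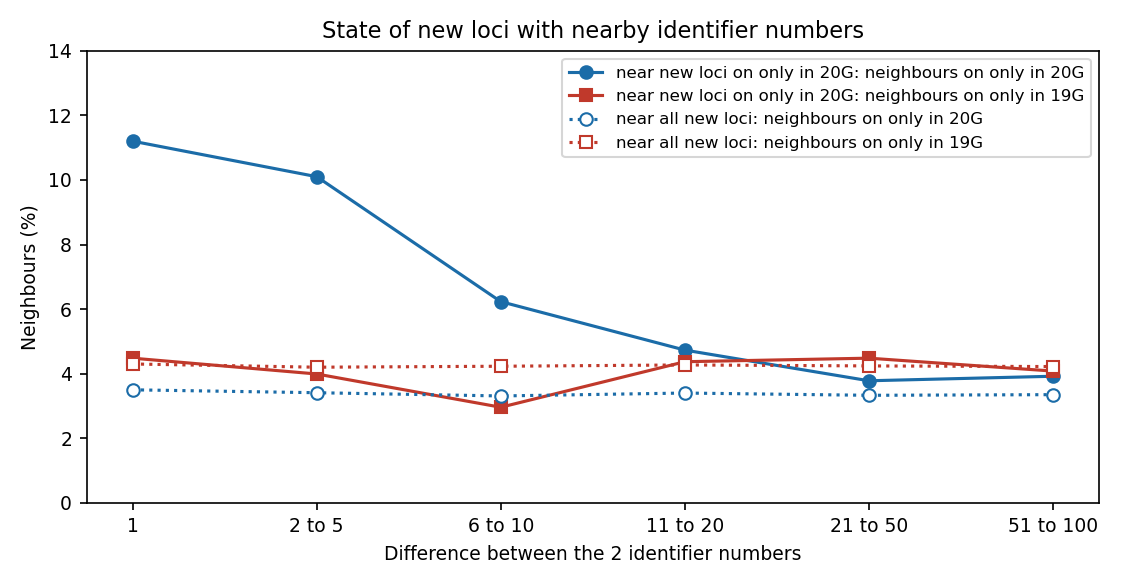
Percentage of listed neighbours, counted per pair (vertical axis), that are on only in 20G (blue) or on only in 19G (red), by the difference in identifier number (horizontal axis, classes of unequal width), near members (solid lines, filled symbols) and near all new loci (dotted lines, open symbols). The solid blue line runs from 11.2% at 1 number apart to 3.92% at 51 to 100, while the other 3 lines stay between 2.96% and 4.48%.

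Of the 152 members, 17 had another member within 5 numbers and 23 within 10. Members were 22 of the 711 listed neighbours 1 to 5 numbers from a member, and 711 of the 62554 near all new loci. Neighbours are counted per pair here too, so the 22 are not distinct members. At 1 number apart these counts were 6 of 134 and 134 of 12778. They were not tested. Consecutive numbers occurred in 3 pairs, and no run was longer than 2. In the first pair, newGene_21441 stood at 13.5, 13.4 and 12.7 FPKM in 20G and newGene_21442 at 25.5, 14.4 and 16.6 FPKM. In the second, newGene_24825 stood at 6.20, 10.01 and 9.59 FPKM and newGene_24826 at 7.35, 6.37 and 5.70 FPKM. In the third, newGene_27131 stood at 8.64, 8.76 and 7.31 FPKM and newGene_27132 at 8.45, 5.20 and 6.77 FPKM. All 6 were at 0 throughout 19G. Within each pair, the order of the 3 libraries of 20G by level differed between the 2 loci.

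Windows of nearby numbers that held several members were examined after their values were seen. Between newGene_27124 and newGene_27134, 8 loci are listed, 4 of them members. In that window newGene_27125 had 24.9, 27.5 and 23.0 FPKM and newGene_27129 had 18.2, 19.2 and 12.6 FPKM in 20G, next to the pair newGene_27131 and newGene_27132. Yet newGene_27130, between 2 members, was expressed in both lines, at 3.10, 3.67 and 2.99 FPKM in 20G and at 2.26, 2.36 and 2.89 FPKM in 19G. At the start of the window, newGene_27124 stood at 77.1, 60.4 and 63.5 FPKM in 20G and at 8.45, 9.55 and 13.2 FPKM in 19G. Members thus lay beside numbers whose loci had signal in both lines.

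Between newGene_2150 and newGene_2163, 11 loci are listed, of which 3 were members. Of the 11, 6 were on only in 20G at 1 FPKM or more and 8 were at 0 throughout 19G. Among these 8, newGene_2154 was also at 0 throughout 20G. The members were newGene_2160, given above, newGene_2155 with 21.03, 34.8 and 19.5 FPKM, and newGene_2150 with 12.2, 18.1 and 14.1 FPKM. Among the lower loci of the window, newGene_2163 had 4.13, 3.17 and 4.18 FPKM in 20G and newGene_2162 had 1.72, 2.78 and 2.72 FPKM, both with 0 in every 19G library. The locus between these and newGene_2160 had a trace in 19G: newGene_2161 stood at 2.56, 2.23 and 2.41 FPKM in 20G and at 0.0317, 0.0407 and 0.0481 FPKM in 19G. Around the first consecutive pair, all 6 loci listed from newGene_21439 to newGene_21444 were at 0 in 19G. Of them, 4 were on only in 20G at 1 FPKM or more, and newGene_21443 was at 0 throughout 20G too. Over all new loci, 38.9% to 40.8% were at 0 in each library of 19G taken alone, and 15.0% in all 6 libraries. The share of all new loci at 0 throughout 19G is not given here, so the window counts at 0 have no like share beside them. Of all 13716 new loci, 464 were on only in 20G at 1 FPKM or more. These windows were chosen after their values were seen, and their counts were not tested.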

How the data were processed

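Groups and replicate numbers came from the sample titles. The authors deposited FPKM, per the labels: fragments divided by transcript length and by mapped fragments. The labels' protocols describe oligo(dT)-enriched, fragmented, PCR-amplified cDNA. Aligner, assembler, genome build and filters: not given in the sources used here. Depth is unknown: no step worth 1 read was found in the low values (for values below 0.1 FPKM, at most 2.09% of loci shared 1 bin of the ratio between 2 libraries), so no count test or detection limit is given.

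Members were chosen in Python 3.11.15 (pandas 2.3.3, NumPy 2.4.6). For the background, loci at 1 FPKM or more in 3 or more libraries were compared as log2(FPKM + 1), a scale that shrinks changes at low level, with limma 3.58.1 in R 4.3.3 (mean-variance trend, 6 libraries, no covariate, two-sided). Calls needed a Benjamini-Hochberg adjusted p under 0.05 with a log2 difference no smaller than 1. The fit was tested on simulated data. Alternatives were another pseudocount, filter, scaling or trend, a replicate block, other limits of the rule, and each library left out.

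Members, comparison sets and the naming rule were chosen with earlier results of these data known. The rule names the 12 highest means in 20G, the 4 smallest and 4 largest ratios of highest to lowest 20G value, the 3 lowest 20G values, the 3 longest runs of consecutive numbers, and 3 loci just outside each limit. The identifiers of the new loci have no entry in the gene table used (HanXRQr2.0-SUNRISE), so the positions and sequences of these loci are not analysed here.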

Additional observations from a re-analysis of the deposited data

How the results depend on the processing

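The set of loci depended on the level asked of 20G. With at least 1 FPKM in every 20G library it held 464 loci with a median 20G mean of 3.94 FPKM, with at least 2 it held 319 loci with a median of 6.12 FPKM, and with at least 10 it held 55 with a median of 17.5 FPKM, against 152 and 10.8 FPKM. It stayed within 1.5 times the 152 when up to 0.1 FPKM was allowed in 19G (191 loci, median 11.2 FPKM), when the 100 most abundant loci were kept in (152) and when each library was left out (158 to 172 loci, medians 9.60 to 11.2 FPKM). In the comparison of lines, a filter on mean FPKM (5 or more) gave 1860 calls and 84 members called, because only 84 members passed that filter. The other alternatives gave 4345 to 5690 calls, against 4849, with all 152 members called, and the highest count was that without 19G replicate 1. Leaving members out of the neighbours lowered the share of neighbours 1 to 5 numbers away that were on only in 20G to 7.40%, against 10.3%; with each library left out it ran from 9.84% to 11.3%. The 26 named members kept direction and call in all 329 values, and apart from the pseudocount no alternative moved a difference beyond 0.894 to 1.09 times its value. Between libraries of the same number, deviations from the line means had correlations of 0.24, -0.01 and 0.13. Not every library correlated best with its own number. Pairing of the samples by number was thus not shown, and it was not tested. With a replicate block the calls numbered 5126, including 4807 of the 4849, and all 152 members. How far depth limits the values at 0 cannot be stated, because the depth is unknown.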

Other observations

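Next to the loci with exact 0 in 19G stood 39 new loci with at least 5 FPKM in every 20G library and a trace, above 0 and up to 0.1 FPKM, in 19G. Their mean in 20G ran from 5.33 to 54.5 FPKM, with a median of 12.3. The trace was present in 1 library of 19G in 30 loci, in 2 libraries in 6 and in all 3 in 3. Where 1 library held it, that was replicate 3 in 15 loci, replicate 2 in 9 and replicate 1 in 6. The most abundant was newGene_3456, with 38.8, 78.6 and 46.2 FPKM in 20G and 0, 0 and 0.0167 FPKM in 19G. It was followed by newGene_26716, with 50.04, 47.1 and 47.6 FPKM in 20G and 0, 0.0308 and 0.0292 FPKM in 19G. Both lay within the range of the 20G levels of the loci at exact 0.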
